A study of Mus musculus with 9 samples.

Results

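Interferon-stimulated genes were followed in sorted blood stem and progenitor cells of 9 mice. The set holds 35 genes, chosen by symbol as textbook targets of type I and type II interferon, of the 38215 genes in the deposited table; all 35 were among the 14944 genes with enough counts to be tested. RNA was sequenced from lineage-negative, Sca1-positive, Kit-positive (LSK) bone marrow cells, where blood stem cells and early progenitors are found, sorted as positive for both GFP and mCherry. All 9 mice were C57BL/6J, carried Jak2V617F, the activating Jak2 mutation of myeloproliferative neoplasms, and had received tamoxifen, so no library shows the cells without the mutation or without tamoxifen. The 5 mice titled EV (mice 1 to 5) had Jak2V617F as their only listed genotype, and 4 mice (numbers 1, 2, 3 and 5) also had sgZrsr2, directed at Zrsr2, a factor of the minor spliceosome. What EV and sg stand for is not written out in the labels. The driver of any Cre, what each fluorescent protein marks, the age of the mice and the number of cells are not given in the sources used here. Each mouse number was taken as a separate animal; the labels say no more, so a p-value measures only the spread between these samples.

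Type I interferons bind the receptor Ifnar1 and Ifnar2, whose kinases Tyk2 and Jak1 phosphorylate Stat proteins. Stat2 and Irf9 are parts of a complex that binds interferon-stimulated response elements, DNA in which GAAA repeats, while type II interferon acts through Jak1 and Jak2 on another element. The targets sense foreign nucleic acids, block viruses and limit the response, and interferon is known to drive quiescent haematopoietic stem cells into cycle. Ly6a, which encodes the Sca1 protein used in the sort, is itself interferon-inducible.

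The element can be read in the promoters of many of these genes. RefSeq (GRCm38.p6) gave a promoter window, 250 bases before to 50 bases after the gene start, for 27 of the 35. The motif searched, GAAA and GAAA with any 2 bases between them, or TTTC and TTTC likewise for the other strand, was present in 15 of these 27 (55.6%), against 3.99% of the 27025 genes with such a window. At least 2 matches, counting overlapping ones, were found in 6 of them, against 0.266% of all genes. It was in the windows of 6 of 6 GTPases, 3 of 3 sensors, 4 of 9 antiviral effectors, 1 of 2 Isg15 conjugation genes and 1 of 3 transcription factors, and in none of the other 4 windows. TTCNNNGAA, a general form of Stat binding sites, which reads the same on both strands, was present in 7 of 27 (25.9%), against 9.55% of all genes. A match is a run of letters and does not show binding. The lines that follow show 50 bases each, 5′ to 3′ on the strand of the gene, with the matches in capitals. They hold the genes with the most matches (Isg15 with 3, then Bst2, Gbp3, Ifit1, Ifit3 and Irgm1 with 2) and the remaining GTPases, which were added after their values were seen.
Isg15, chr4:156200867-156200916, minus strand: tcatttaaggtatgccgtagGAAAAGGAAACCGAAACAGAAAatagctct
Bst2, chr8:71537573-71537622, minus strand: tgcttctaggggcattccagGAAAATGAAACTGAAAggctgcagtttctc
Ifit1, chr19:34640765-34640814, plus strand: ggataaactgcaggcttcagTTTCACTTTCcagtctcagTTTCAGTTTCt
Ifit3, upstream match, chr19:34583353-34583402, plus strand: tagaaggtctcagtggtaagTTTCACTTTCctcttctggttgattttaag
Ifit3, downstream match, chr19:34583387-34583436, plus strand: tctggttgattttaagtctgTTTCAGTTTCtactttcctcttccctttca
Gbp2, chr3:142620584-142620633, plus strand: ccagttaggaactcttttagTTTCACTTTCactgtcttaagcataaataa
Gbp3, chr3:142559979-142560028, plus strand: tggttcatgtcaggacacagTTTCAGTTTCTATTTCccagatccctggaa
Gbp7, chr3:142530263-142530312, plus strand: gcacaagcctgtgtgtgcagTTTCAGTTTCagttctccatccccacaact
Igtp, chr11:58199502-58199551, plus strand: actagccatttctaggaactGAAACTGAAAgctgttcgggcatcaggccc
Irgm2, chr11:58214893-58214942, plus strand: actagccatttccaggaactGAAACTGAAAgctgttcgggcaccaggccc
Irgm1, chr11:48871421-48871470, minus strand: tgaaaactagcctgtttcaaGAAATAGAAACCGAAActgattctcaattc
The windows follow RefSeq's gene starts, which differ from those of the deposited table for some genes: the stretches of Irgm1 and Irgm2 lie inside the gene spans that the table gives. Most of the stretch of Gbp2, with its match, also lies inside the span given there, which starts at 142620602. The stretches of Igtp and Irgm2, which are neighbours, were identical at 48 of 50 bases. In Isg15 the 3 matches overlap in a run of GAAA repeats, whereas in Ifit1 and Ifit3 the 2 matches lie apart.

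The libraries held 23238264 to 45585531 expected counts, and levels are given as CPM, counts scaled to the TMM-normalized library size. Zrsr2 in EV mice 1 to 5 measured 50.6, 51.9, 62.2, 51.7 and 50.7 CPM, and sgZrsr2 mice 1, 2, 3 and 5 gave 39.4, 44.4, 40 and 31.7 CPM. No sgZrsr2 value reached the EV range (two-sided exact permutation p = 0.0159, the minimum for groups of 5 and 4), but the edgeR adjusted p was 0.714, and the sgZrsr2 mean was still 72.8% of the EV mean. All 9 listed LSK markers were detected, with Kit at 247 to 632 CPM. Markers of mature cells were not all absent: Cd3e of T cells reached 0.0873 CPM and Ly6g of neutrophils 0.0556 CPM, but S100a9 reached 56.9 CPM and Nkg7 lay at 46 to 92.7 CPM. The highest of the listed markers outside LSK were Jchain (listed as Igj), of the B and plasma cell list, and F13a1, of the monocyte and macrophage list. They lay at 10.1 to 659 CPM and 144 to 442 CPM. sgZrsr2 mice 1 and 2 were the most alike pair of libraries, and 3 libraries (EV mouse 5 and sgZrsr2 mice 3 and 5) stood apart by erythroid and megakaryocyte markers. Their erythroid markers summed to 283, 436 and 287 CPM, against 98.1 to 200 CPM in the other 6. Their megakaryocyte markers summed to 355, 457 and 568 CPM, against 158 to 319 CPM. Results are given with and without these 3 libraries where they move.

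No interferon-stimulated gene passed the test of sgZrsr2 against EV. In edgeR's quasi-likelihood test with Benjamini-Hochberg adjustment over all genes, 0 of 35 passed an adjusted p of 0.05, as did 0% of the 14944 genes tested. At an unadjusted p under 0.05 the count was 0 of 35, against 6.85% of all genes (3.87% higher and 2.98% lower with sgZrsr2), and in 0 of 35 the groups did not overlap, against 3.06% of all genes. The smallest unadjusted p was 0.0628, for Ddx58, with an edgeR adjusted p of 0.714. Other tools also gave 0 genes of the set past the adjusted threshold. At an unadjusted p under 0.05 the DESeq2 Wald test gave 1 and limma-voom with sample quality weights 3. The shares of all genes in those fits are not given here, so these counts are not read as a result about the set. The standard errors of the 35 log2 fold changes ran from 0.11 to 0.65 (median 0.27), so small changes could have been missed, and a gene that did not pass is not shown to be equal in the groups.

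The fitted changes leaned to one side without passing any test. The log2 fold change (sgZrsr2 minus EV) was above 0 in 28 of 35 genes, against 48.5% of all genes tested, and its median was 0.21 (quartiles 0.07 and 0.39), against -0.01 over all genes. sgZrsr2 mouse 3 carried much of this: without it the median was 0.05, with 18 of 35 above 0. Without the 3 libraries that stood apart the median was -0.04, with 17 of 35 above 0, and limma-voom with quality weights gave -0.05, with 14 of 35 above 0. Without EV mouse 5 alone, 6 of 35 genes reached an unadjusted p under 0.05, each higher with sgZrsr2, against 8.73% of all genes in that fit.

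**Figure D1:**
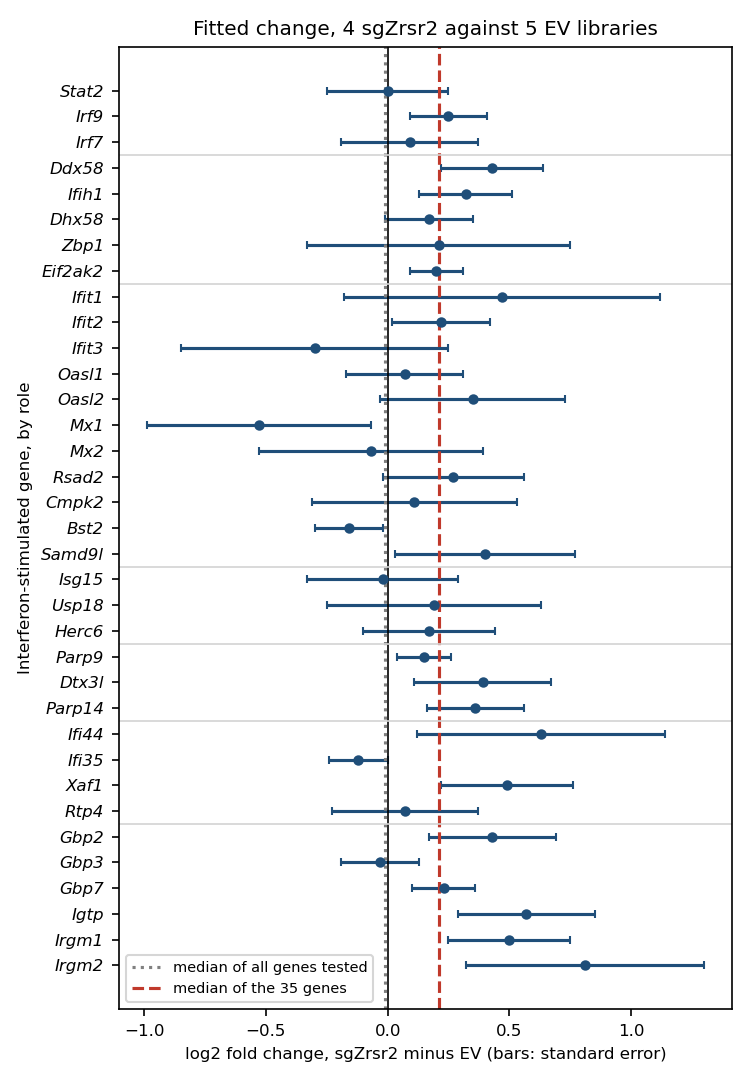
Fitted log2 fold change (horizontal axis, sgZrsr2 minus EV) of each of the 35 genes, grouped by role, with its standard error as the bar. 28 points lie right of 0, the median of the set (dashed) is 0.21 against -0.01 for all genes tested (dotted), and no gene passed the test.

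The level of these genes differed more between mice of a group than between the groups. The mean log2 CPM of the 35 genes (prior count 2) was 4.36, 4.06, 3.38, 3.67 and 4.21 for EV mice 1 to 5, while sgZrsr2 mice 1, 2, 3 and 5 gave 3.77, 3.80, 4.65 and 4.29. The groups overlapped over most of their range, at 3.94 ± 0.40 (SD, n = 5) and 4.13 ± 0.42 (SD, n = 4). sgZrsr2 mouse 3 was the highest library and EV mouse 3 the lowest: 21 of 35 genes had their highest CPM in the former, against 21% of all genes, and 23 of 35 (65.7%) their lowest in the latter, against 22% of all genes. Under RLE factors, upper-quartile factors or library totals these counts were 21 to 24 and 22 to 24. EV mouse 1, with 6 genes at their highest, came next. In bulk RNA, fewer cells of a responding type and less RNA per cell cannot be told apart.

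**Figure D2:**
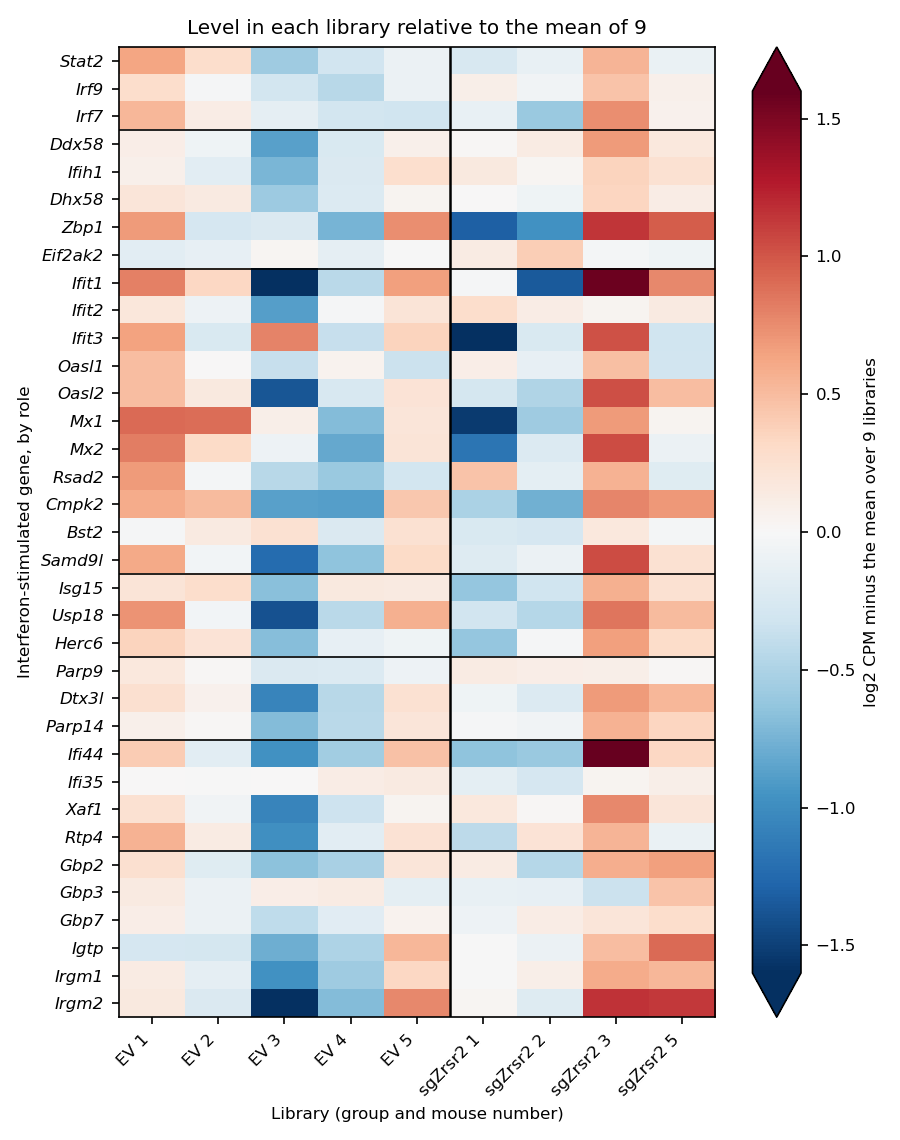
Each row is 1 gene, each column 1 library, and the colour gives log2 CPM minus that gene's mean over the 9 libraries; horizontal lines part the roles and the vertical line parts EV from sgZrsr2. EV mouse 3 is blue in most rows, with 23 of 35 genes at their lowest, and sgZrsr2 mouse 3 red, with 21 of 35 at their highest.

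The transcription factors of the pathway had log2 fold changes of 0.00 to 0.25, with none past the test. Stat2 (ENSMUSG00000040033; chromosome 10, 128270576 to 128292849, plus strand), the Stat protein of that complex, stood at 65.5, 51.4, 28.4, 34.1 and 39.7 CPM in EV mice 1 to 5, and sgZrsr2 mice 1, 2, 3 and 5 gave 35.4, 39, 61.8 and 39.4 CPM. Its highest value was in an EV mouse, 1 sgZrsr2 mouse stood above the other 3, and the log2 fold change was 0.00 (SE 0.25; edgeR adjusted p = 0.997). Irf9 (ENSMUSG00000002325; chromosome 14, 55603571 to 55610030, plus strand), the DNA-binding part of the complex, stood at 84.5, 69, 56.9, 51.4 and 65.3 CPM in EV mice 1 to 5, and sgZrsr2 mice 1, 2, 3 and 5 gave 74.3, 66.9, 95.8 and 73.7 CPM. The sgZrsr2 values lay above the EV median of 65.3 CPM, with 1 above the whole EV range (log2 fold change 0.25, SE 0.16, edgeR adjusted p = 0.732). Irf9 overlaps Rnf31 on the same strand and had whole-number counts in 4 of 9 libraries, so some of its reads were divided with another gene. Irf7 (ENSMUSG00000025498; chromosome 7, 141262706 to 141266481, minus strand), which amplifies interferon production, ranged from 8.68 to 22 CPM, both ends in sgZrsr2 mice (log2 fold change 0.09, SE 0.28). Its counts were whole in 9 of 9 libraries, so there was no sign of reads divided with another gene. Irf7 overlaps Phrf1 on the opposite strand, which reached 179 CPM. Since no source says that strand was used in counting, the level of Irf7 is still uncertain.

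The sensors of foreign nucleic acids had log2 fold changes above 0 in 5 of 5 genes (median 0.21), with none past the test. Ddx58 (ENSMUSG00000040296; chromosome 4, 40203773 to 40239828, minus strand), the RNA helicase RIG-I, stood at 39.9, 35.2, 20.2, 31.2 and 39.2 CPM in EV mice 1 to 5, and sgZrsr2 mice 1, 2, 3 and 5 gave 37.4, 40.6, 59.2 and 41.4 CPM. The sgZrsr2 libraries lay near or above the upper end of EV, and mouse 3 was alone well above it (log2 fold change 0.43, SE 0.21; edgeR adjusted p = 0.714). Ifih1 (MDA5), a second such helicase, was at 22.91 ± 5.64 CPM over the EV mice (SD, n = 5) against 28.62 ± 2.74 CPM over the sgZrsr2 mice (SD, n = 4), and Dhx58 (LGP2), which modulates both, at 17.23 ± 3.53 and 19.33 ± 2.51 CPM. Zbp1, which binds Z-form nucleic acids and can start necroptosis, was low and scattered, from 1.38 CPM in sgZrsr2 mouse 1 to 7.81 CPM in sgZrsr2 mouse 3. Eif2ak2, the kinase PKR that halts translation on double-stranded RNA, behaved differently from the rest: EV mice 1 to 5 were at 49.4, 50.7, 57, 50.1 and 55.6 CPM and sgZrsr2 mice 1, 2, 3 and 5 at 60.9, 72.8, 54.2 and 53.1 CPM, so it was highest in the 2 sgZrsr2 mice where most others were low. Its counts were whole in 2 of 9 libraries, so reads shared with other genes enter its level.

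Among the antiviral effectors the log2 fold change was above 0 in 7 of 11 genes, with a median of 0.11. Ifit1 (ENSMUSG00000034459; chromosome 19, 34640871 to 34650009, plus strand), which binds RNA without the host's cap methylation, stood at 3.74, 2.67, 0.374, 1.55 and 3.37 CPM in EV mice 1 to 5, and sgZrsr2 mice 1, 2, 3 and 5 gave 2.09, 0.8, 6.4 and 3.64 CPM. That is a 17.1-fold range between 2 mice that both carry the number 3, the widest of the 35 genes, resting on 12 to 262.98 expected counts, and both groups covered most of it (log2 fold change 0.47, SE 0.65). Its neighbour Ifit2 was at 12.8 CPM in EV mouse 3 and at 22.4 to 28.8 CPM in the other 8 libraries. Ifit3, with 3 to 47.35 expected counts per library, was too low to compare (0.134 to 1.14 CPM).

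Oasl2 (ENSMUSG00000029561; chromosome 5, 114896936 to 114912234, plus strand), a relative of the oligoadenylate synthetases, stood at 31.9, 25.3, 8.73, 18.9 and 26.3 CPM in EV mice 1 to 5, and sgZrsr2 mice 1, 2, 3 and 5 gave 18.6, 16.2, 46.5 and 31.8 CPM. Samd9l, a growth-restraining gene known to be mutated in inherited marrow disease, had the same order of libraries at its ends, 13.6 CPM in EV mouse 3 and 66 CPM in sgZrsr2 mouse 3. Its group means of 30.65 ± 14.2 and 40.32 ± 17.6 CPM (SD, n = 5 and n = 4) differed by less than either SD. Cmpk2, a mitochondrial nucleotide kinase, stood at 27.2, 25.6, 9.82, 9.72 and 24.3 CPM in EV mice 1 to 5, and sgZrsr2 mice 1, 2, 3 and 5 gave 12.6, 10.5, 30.7 and 29.1 CPM. The values of Cmpk2 formed a low set, EV mice 3 and 4 with sgZrsr2 mice 1 and 2, and a high set of the other 5, each set holding mice of both genotypes. Rsad2 (viperin), its neighbour, ranged from 5.93 to 14.5 CPM, and Oasl1 from 5.18 to 9.39 CPM.

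The Mx genes and Bst2 were on the other side of 0. Mx1 (ENSMUSG00000000386; chromosome 16, 97447035 to 97462907, minus strand), a dynamin-like GTPase whose gene is defective in C57BL/6 mice, stood at 7.03, 6.94, 3.96, 2.26 and 4.25 CPM in EV mice 1 to 5, and sgZrsr2 mice 1, 2, 3 and 5 gave 1.25, 2.48, 5.96 and 3.81 CPM. Its log2 fold change of -0.53 (SE 0.46; edgeR adjusted p = 0.777) was the most negative of the set, and the groups overlapped. Mx2 ran from 0.801 to 3.92 CPM, both in sgZrsr2 mice. Bst2 (tetherin), which holds budding virus at the cell surface, varied least among the effectors, at 68.04 ± 9.15 CPM over the EV mice (SD, n = 5) against 60.69 ± 8.93 CPM over the sgZrsr2 mice (SD, n = 4), a log2 fold change of -0.16 (SE 0.14; edgeR adjusted p = 0.765). Per kilobase of merged exons, Bst2 had the highest level of the 35 genes, with a median of 70.1 CPM per kb over 9 libraries; Ifi35 followed at 17.6, and Ifit3 was lowest at 0.253.

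Isg15, its protease and its ligase form a modification system resembling ubiquitin. Isg15 (ENSMUSG00000035692; chromosome 4, 156199424 to 156200818, minus strand), the modifier itself, stood at 3.57, 3.76, 1.93, 3.46 and 3.43 CPM in EV mice 1 to 5, and sgZrsr2 mice 1, 2, 3 and 5 gave 2, 2.48, 4.6 and 3.67 CPM. Low in 3 mice and highest in sgZrsr2 mouse 3, it gave nearly equal group means (log2 fold change -0.02, SE 0.31; edgeR adjusted p = 0.99). Usp18, which removes Isg15 and also dampens the type I receptor, stood at 6.39, 3.76, 1.43, 2.86 and 5.79 CPM in EV mice 1 to 5, and sgZrsr2 mice 1, 2, 3 and 5 gave 3.12, 2.8, 7.03 and 5.51 CPM. Herc6, the mouse Isg15 ligase, ran from 10.5 CPM in EV mouse 3 to 26.5 CPM in sgZrsr2 mouse 3.

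The ADP-ribosyltransferase genes and Dtx3l lie together on chromosome 16, and 3 of 3 had log2 fold changes above 0 (median 0.36). Dtx3l (ENSMUSG00000049502; chromosome 16, 35926511 to 35939151, minus strand), a ubiquitin ligase that pairs with Parp9, stood at 86.6, 76.4, 35, 53.6 and 86.1 CPM in EV mice 1 to 5, and sgZrsr2 mice 1, 2, 3 and 5 gave 69.6, 62.5, 117 and 105 CPM. sgZrsr2 mice 3 and 5 were above all EV mice and sgZrsr2 mice 1 and 2 within them (log2 fold change 0.39, SE 0.28; edgeR adjusted p = 0.743). Parp14 followed the same order at its ends, with 40.5 CPM in EV mouse 3 and 96.4 CPM in sgZrsr2 mouse 3. Parp9 varied much less, from 41.6 to 54.9 CPM. Dtx3l and Parp9 overlap by 682 bases on opposite strands and had whole-number counts in 0 of 9 libraries, so reads were divided between genes in every library and neither level is certain.

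**Figure D3:**
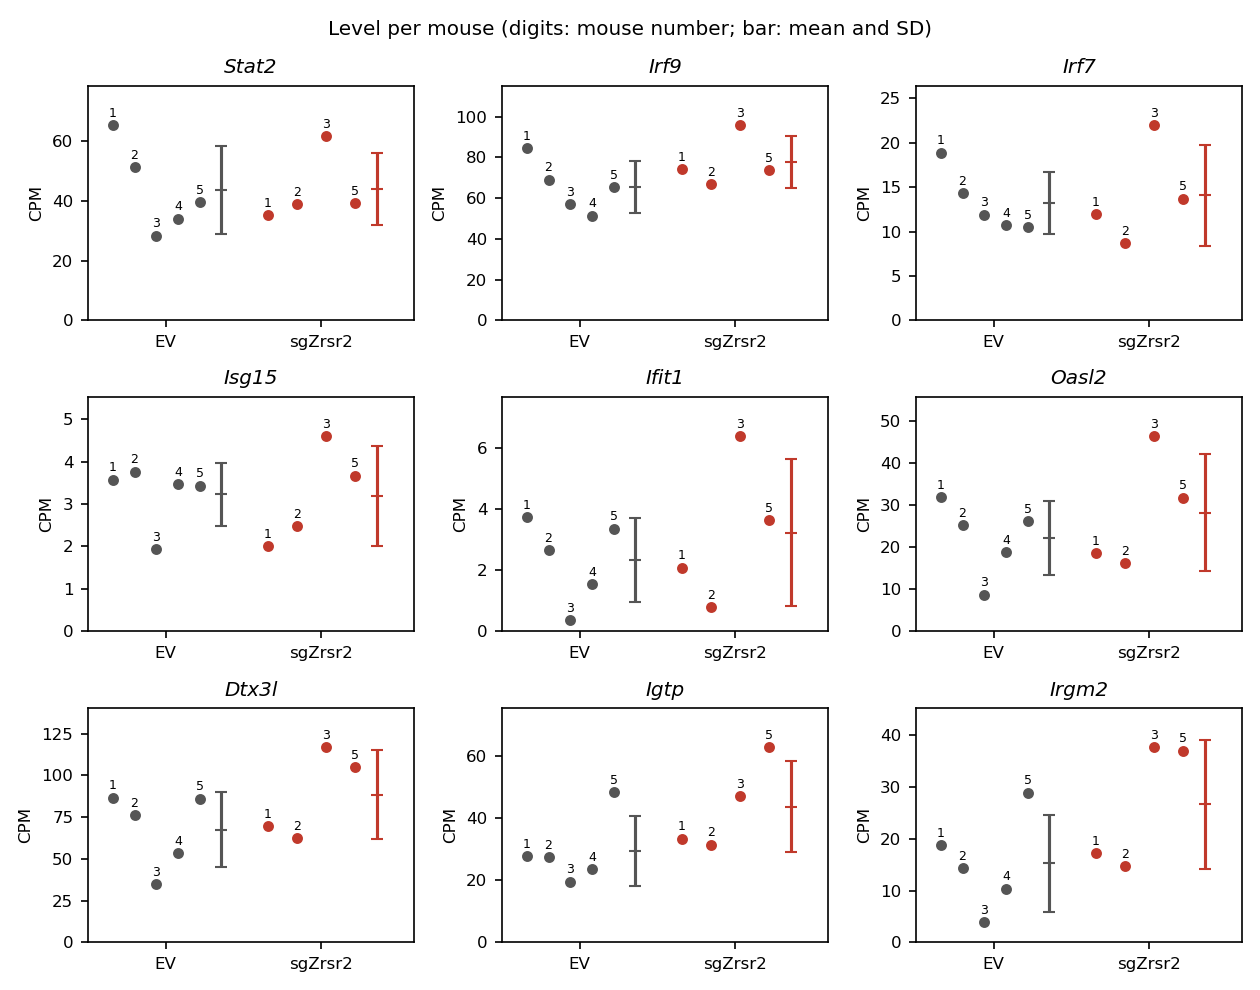
CPM of 9 of the genes in each mouse (points, mouse number beside each), with the mean and SD of EV (n = 5) and sgZrsr2 (n = 4) at the side of each group; vertical axes start at 0. In all 9 panels the groups overlap, and in most of them sgZrsr2 mouse 3 and EV mouse 3 lie at or near opposite ends, as in Ifit1, at 6.4 and 0.374 CPM.

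The interferon-inducible GTPases, which act on the vacuoles of intracellular pathogens and are driven strongly by type II interferon, had the largest median log2 fold change of the 7 roles, 0.47, with 5 of 6 above 0 and 0 of 6 past the test. Irgm2 (ENSMUSG00000069874; chromosome 11, 58199618 to 58222779, plus strand) stood at 18.8, 14.3, 3.87, 10.4 and 28.9 CPM in EV mice 1 to 5, and sgZrsr2 mice 1, 2, 3 and 5 gave 17.2, 14.7, 37.7 and 37 CPM. Its log2 fold change of 0.81 (SE 0.49; edgeR adjusted p = 0.728) was the largest of the 35, although sgZrsr2 mice 1 and 2 were below EV mice 1 and 5. Igtp (ENSMUSG00000078853; chromosome 11, 58199556 to 58207591, plus strand) stood at 27.7, 27.5, 19.5, 23.6 and 48.4 CPM in EV mice 1 to 5, and sgZrsr2 mice 1, 2, 3 and 5 gave 33.3, 31.4, 47.1 and 62.8 CPM. EV mouse 5 stood above 3 of the 4 sgZrsr2 mice, and the other 4 EV mice were below all of them (log2 fold change 0.57, SE 0.28; edgeR adjusted p = 0.714). Igtp and Irgm2 overlap on the same strand and had whole-number counts in 0 of 9 libraries, so their reads were divided by the counting model and the levels of both are uncertain.

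Irgm1, a regulator of the other members of its family that is needed for normal stem cell function in mice, stood at 50.8, 41.8, 23.8, 31.2 and 58.6 CPM in EV mice 1 to 5, and sgZrsr2 mice 1, 2, 3 and 5 gave 46.3, 49.7, 70.2 and 66.9 CPM. Its counts were whole in 9 of 9 libraries, and its values showed the same order at the ends as Irgm2 (log2 fold change 0.50, SE 0.25; edgeR adjusted p = 0.714). In the Gbp cluster on chromosome 3, Gbp2 was at 20.74 ± 5.79 CPM over the EV mice (SD, n = 5) against 27.96 ± 9.03 CPM over the sgZrsr2 mice (SD, n = 4), and Gbp7 at 68.76 ± 9.46 and 80.59 ± 8.59 CPM. Gbp3, in the same cluster, was at 59.32 ± 5.77 and 58.09 ± 14.8 CPM, and it was lowest in sgZrsr2 mouse 3, at 45.9 CPM, where Irgm1 was highest. Gbp3 and Gbp7 each had whole-number counts in 3 of 9 libraries, so reads shared with other genes enter both levels. The 4 genes outside these roles were Ifi44 (log2 fold change 0.63, SE 0.51), Xaf1, an antagonist of the apoptosis inhibitor Xiap (0.49, SE 0.27), Rtp4, a receptor-trafficking protein (0.07, SE 0.30), and Ifi35 (-0.12, SE 0.12). Ifi44 reached 17.2 CPM in sgZrsr2 mouse 3 and was at 2.62 to 7.18 CPM in the other 8 libraries.

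Within groups, most of the 35 genes moved together from mouse to mouse. After the mean of each group was subtracted, the median Pearson correlation over the 9 libraries was 0.65 between the 595 pairs of genes (quartiles 0.36 and 0.82), against 0.00 between all pairs of genes tested. Pairs with r above 0.5 were 66.7% of those in the set and 21% of all pairs. These correlations are descriptions: all genes share the same 9 libraries, and with them depth and RNA quality. For 30 of 35 genes the correlation with the mean of the others was above 0.5, highest for Samd9l (0.97). Oasl2, Usp18, Dtx3l and Parp14 each had 0.96. The exceptions were Eif2ak2 (-0.62), Gbp3 (-0.17), Bst2 (0.43), Ifit3 (0.44) and Oasl1 (0.50).

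By role, correlation was highest among the 3 transcription factors (median r 0.87) and the 3 Isg15 conjugation genes (0.84), then the GTPases (0.82), and lowest among the effectors (0.54) and sensors (0.56). Chromosomal neighbours did not all move together. Dtx3l and Parp14 (r = 0.98) and Mx1 and Mx2 (0.95) did, Igtp and Irgm2 (0.88) share reads, and Rsad2 and Cmpk2 had 0.52. Gbp3 and Gbp7, which lie 9968 bases apart and both hold reads shared with other genes, had 0.10. Ifit2 and Ifit3, 7111 bases apart, had -0.34, with Ifit3 at very few counts.

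**Figure D4:**
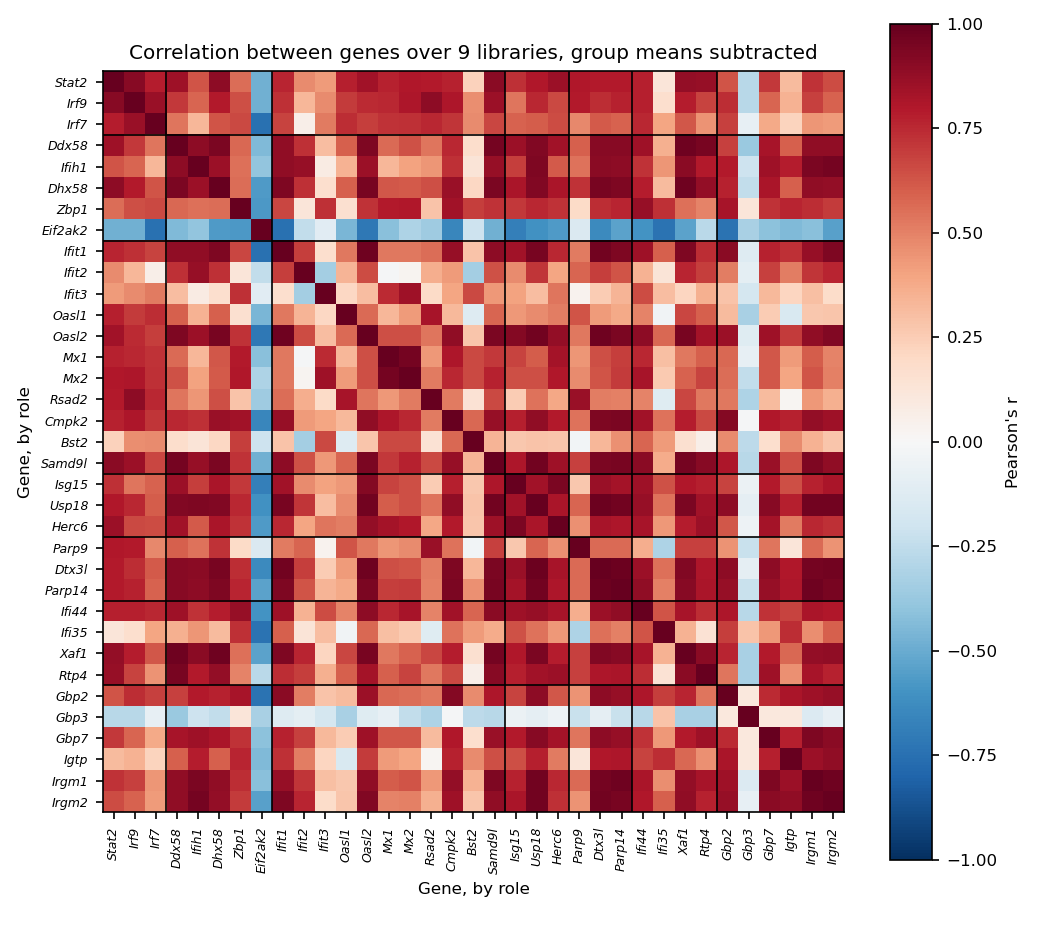
Pearson's r between each pair of the 35 genes over the 9 libraries after group means were subtracted, ordered by role. Most of the field is red (median r 0.65), and Eif2ak2 and Gbp3 stand out as pale or blue lines, with -0.62 and -0.17 to the mean of the others.

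This covariation was not separate from the main difference between libraries. In a principal component analysis of all 14944 genes with group means subtracted, component 1 took 44.4% of the variance, and its correlation with the mean of the 35 genes over 9 libraries was 0.96 (Spearman's rho 0.93). Without EV mouse 3 and sgZrsr2 mouse 1, the 2 libraries farthest from the median of the component, r was 0.94. The same 4 libraries, EV mice 3 and 4 and sgZrsr2 mice 1 and 2, were below 0 on both, so the correlation also holds this division. Of the 35 genes 29 had r above 0.5 with the component, as did 34.6% of all genes, and a further 30.9% of all genes had r below -0.5. With the component removed, an alternative added after the data were seen, the median r between the 35 genes was 0.21 and 29.2% of pairs were above 0.5, against 0.00 and 16% for all genes.

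**Figure D5:**
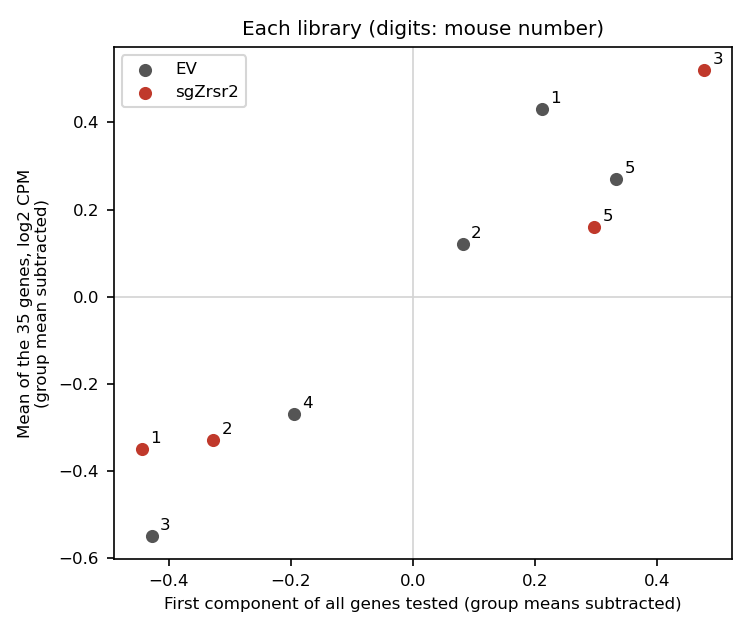
Mean log2 CPM of the 35 genes (vertical axis) against the score on the first component of all genes tested (horizontal axis), both with group means subtracted; each point is 1 library with its mouse number. The libraries follow 1 line (r = 0.96, n = 9), with EV mouse 3 and sgZrsr2 mice 1 and 2 at the lower left and sgZrsr2 mouse 3 at the upper right.

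Many genes outside the set followed it over the libraries. Of the 14909 other genes tested, 6.24% had r above 0.9 with the mean of the 35. The 10 highest were Kdm5d (0.996), Gm11346 (0.994), Fam65b (0.993), Agbl5 (0.991), AC142191.1 (0.99) and Mgat1, Kdm5b, Gm4759, Rnf213 and AC140312.1 (0.989 each), over 9 libraries. Rnf213 is interferon-inducible, Kdm5d and Kdm5b are histone demethylases, and Mgat1 acts in N-glycan synthesis. Kdm5d was at 20.2 CPM in EV mouse 3 and 46 CPM in sgZrsr2 mouse 3, the same ends as most of the set.

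Further genes of the pathway were read from lists of 103 genes, of which 102 were in the table and 86 tested. None passed the adjusted threshold, and 4 of 86 (4.65%) had an unadjusted p under 0.05 in edgeR, against 6.85% of all genes. Of these 3 were higher (3.87% of all genes were) and 1 was lower (2.98%). The median log2 fold change was 0.12, with 60 above 0 and 26 below. The 14 interferon genes themselves were at or near 0: 6 had no count in any library, none was tested, and together they took 0 to 0.685 CPM, at most 31 counts per library. Interferon made by other cells is not seen in these libraries.

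Of the 6 receptor genes 5 were tested, and Ifnlr1 (listed as Il28ra), of the type III receptor, was at 0 to 0.401 CPM. Ifnar1 stood at 111, 103, 91.9, 80 and 95.7 CPM in EV mice 1 to 5, and sgZrsr2 mice 1, 2, 3 and 5 gave 108, 121, 120 and 108 CPM, so EV mouse 1 overlapped the sgZrsr2 range (log2 fold change 0.25; unadjusted p = 0.0481, edgeR adjusted p = 0.714). Ifnar2 was at 137.4 ± 16.7 CPM over the EV mice (SD, n = 5) against 150 ± 12.5 CPM over the sgZrsr2 mice (SD, n = 4), and Ifngr2 at 28.15 ± 5.58 and 31.96 ± 3.95 CPM. Ifngr1, the ligand-binding chain for type II interferon, ran against the set, with r = -0.95 to its mean: it was at 145 CPM in EV mouse 3, the highest of its group, and at 102 CPM in sgZrsr2 mouse 3, the lowest of its own.

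Among kinases and factors, Tyk2 moved with the set (r = 0.86; 42.9 to 90.2 CPM), as did Irf8 (0.81). Jak1, at 232.8 ± 24.3 CPM over the EV mice (SD, n = 5) against 259.4 ± 14.9 CPM over the sgZrsr2 mice (SD, n = 4), varied little. Jak2, whose counts sum the mutant and normal alleles, had the smallest p of this list (unadjusted p = 0.0582, edgeR adjusted p = 0.714). Irf1, which answers mainly to type II interferon, was at 116.4 ± 13.9 and 137 ± 10.4 CPM (edgeR adjusted p = 0.714). Of the sensors and adaptors, Mavs, which relays the signal of Ddx58 and Ifih1, moved with the set (r = 0.91), and Myd88, the adaptor of Toll-like receptors, against it (-0.89). Tlr3, low at 2.181 ± 1.13 CPM over the EV mice against 0.9164 ± 0.299 CPM over the sgZrsr2 mice (SD, n = 5 and n = 4), had a log2 fold change of -1.24 (unadjusted p = 0.0262, edgeR adjusted p = 0.714).

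Of the 4 listed inhibitors of the pathway, 3 ran against the set and Irf2 with it. Socs3, which blocks Jak kinases, stood at 59.1, 82.2, 367, 217 and 34.6 CPM in EV mice 1 to 5, and sgZrsr2 mice 1, 2, 3 and 5 gave 145, 134, 69.9 and 42.7 CPM. It was highest in EV mice 3 and 4 and, within sgZrsr2, in mice 1 and 2, the 4 libraries where the set was lowest, and r with the mean of the set was -0.85. Socs1 (-0.58; 4.09 to 13.1 CPM) and Ptpn2, a phosphatase of Jak and Stat proteins (-0.73), had the same sign, while Irf2, which competes with activating factors of its family, had r = 0.94. Between the groups 4 of 4 inhibitors had log2 fold changes below 0 (median -0.30) with none past the test; Ptpn2 had the smallest p (unadjusted p = 0.152, edgeR adjusted p = 0.735). For scale, 30.8% of the other genes had r below -0.5.

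Of 57 further interferon-inducible genes tested, 43 had a log2 fold change above 0, with a median of 0.15. Trafd1, which restrains innate signalling, stood at 96.1, 94.9, 78.4, 69.3 and 87.7 CPM in EV mice 1 to 5, and sgZrsr2 mice 1, 2, 3 and 5 gave 98.2, 101, 124 and 97.7 CPM; the groups did not overlap, by a narrow margin (log2 fold change 0.30; unadjusted p = 0.0356, edgeR adjusted p = 0.714). Oas1a, with 15.9 to 21.9 CPM against 22 to 25.2 CPM, was the other of 2 such genes among 86 (2.33%, against 3.06% of all genes). Znfx1, a mitochondrial sensor of viral RNA, had a log2 fold change of 0.25 (unadjusted p = 0.0442, edgeR adjusted p = 0.714). Of the 57 genes, 40 had r above 0.5 with the mean of the set and 8 below -0.5. Among the other genes tested these shares were 34.2% and 30.8%. Among those of negative r, Ifitm2 had -0.93, Ly6e -0.83, Ifitm3 -0.72, Ifitm1 -0.71 and Ly6a -0.50. Ifitm2 was at 403 and 398 CPM in EV mice 3 and 4 and at 189 to 215 CPM in the other 3 EV mice. Most of the 57 genes moved with the set, but interferon-inducible genes did not all move as 1 block between these libraries.

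Markers of other cells and of RNA quality were read beside these values. The summed CPM of 6 plasmacytoid dendritic cell markers was 8.28 to 62.5 with EV and 23.8 to 93.3 with sgZrsr2, with 5 of 6 at a median of at least 1 CPM, and 6 conventional dendritic cell markers took 29.5 to 75 and 29.5 to 84.2 CPM. The correlation of these sums with the mean of the 35 genes was 0.51 and 0.73. That of 9 matched erythroid markers was 0.86 (98.1 to 283 CPM with EV and 172 to 436 CPM with sgZrsr2), and that of 8 megakaryocyte markers 0.30. Each sum rested largely on 1 gene, Car2 (r = 0.83) for the erythroid and Itga2b (109 to 319 CPM, r = -0.18) for the megakaryocyte list. Taken singly, the megakaryocyte markers other than Itga2b had r of 0.57 (Itgb3) to 0.87 (Gp9). The 10 mature neutrophil markers summed to 188 and 217 CPM in EV mouse 5 and sgZrsr2 mouse 3 but to 28.1 and 31.6 CPM in EV mouse 1 and sgZrsr2 mouse 5, where the set was also above its group mean (r = 0.25). Monocyte and macrophage markers (557 to 1110 and 588 to 781 CPM; r = -0.08), T and NK cell markers (48.9 to 82.3 and 61 to 97.6 CPM; r = 0.50, mostly Nkg7) and B and plasma cell markers (28.5 to 678 and 128 to 406 CPM; r = 0.04) completed the lists. The 9 LSK markers took 1380 to 1940 and 1560 to 2000 CPM (r = 0.62), with Kit at r = 0.94. Mitochondrial genes took 2.27% to 4.07% of the counts, most in sgZrsr2 mice 1 and 2 and least in sgZrsr2 mice 5 and 3, and ribosomal protein genes 5.31% to 6.99%. The part of any of these in the levels of the 35 genes was not tested.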

How the data were processed

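RNA of 9 libraries from sorted LSK cells was measured; per the labels' protocols, each library started from 5 ng of total RNA, polyadenylated RNA was selected and libraries were amplified by PCR. The authors deposited RSEM expected counts per gene, not normalized; RSEM divides reads that match several genes, so that in each library 9.78% to 13.3% of values were fractional (tolerance 0.005). The submitters' processing notes name cutadapt 1.11, RSEM 1.2.30 and the build GRCm38; the aligner, gene annotation and strandedness are not given in the sources used here. Gene coordinates are as the table gives them.

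Counts were rounded to whole numbers, filtered with filterByExpr (minimum count 10, minimum total 15; 99.93% of counts kept), scaled by TMM (factors 0.894 to 1.07) and tested with edgeR 4.0.16 in R 4.3.3 (estimateDisp, glmQLFit, glmQLFTest) without covariates, Benjamini-Hochberg adjusted over 14944 genes. The biological coefficient of variation was 0.322. A standard error is the size of the log2 fold change divided by the square root of F. Single values were compared by two-sided exact permutation over the 126 splits. The test was checked on simulated counts, in which it missed nearly all changes of 0.5 on the log2 scale.

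The 35 genes, the roles, the pathway and marker lists and the tests were chosen with earlier results of these data known. All 35 genes are named; of the pathway lists, those with an unadjusted p under 0.05 or else the smallest p, and the defining genes (Irf1, Ifnar1, Ifnar2, Ifngr1, Ifngr2, Jak1, Tyk2, Socs1 and Ly6a, with 1 more that is not reported here); the 10 genes most correlated with the set; and for promoters the 6 with most matches. Genes beyond this rule (Socs3, Irf2, Irf8, Mavs, Myd88, Oas1a, Ifitm1, Ifitm2, Ifitm3, Ly6e, Ifnlr1 and the single cell markers given) were chosen after their values were seen. Older symbols were matched through RefSeq synonyms. Depth, 23238264 to 45585531 counts, limits precision for genes of few counts, and PCR copies are not independent molecules.

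Alternatives tried were scaling by RLE or by upper quartiles, dropping the expression filter or asking for 1 CPM in at least 4 samples, DESeq2 1.42.0, limma-voom (limma 3.58.1) with sample quality weights, counts not rounded, the mouse number as a block, sgZrsr2 mice 1 and 2 averaged, leaving out each library, and leaving out EV mouse 5 with sgZrsr2 mice 3 and 5; for correlations also Spearman's and a prior count of 0.5.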

Additional observations from a re-analysis of the deposited data

Results flagged for a closer look

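In each group, every one of the 35 genes and Zrsr2 was checked for a single mouse apart from the others (the distance to the next value as a share of the group's whole range); of 72 such checks 4 stood out, where chance gives about 3.6. For Stat2 it was sgZrsr2 mouse 3 with 61.8 CPM, while the remaining sgZrsr2 mice had 35.4 to 39.4 CPM. Isg15 was low in EV mouse 3 with 1.93 CPM, while the remaining EV mice had 3.43 to 3.76 CPM. Igtp, which shares reads with Irgm2, was high in EV mouse 5 with 48.4 CPM, the remaining EV mice having 19.5 to 27.7 CPM. Zrsr2 itself was high in EV mouse 3 with 62.2 CPM, the remaining EV mice having 50.6 to 51.9 CPM.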

How the results depend on the processing

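In 10 alternatives and 9 fits without a library, 0 of the 35 genes and 0 of the pathway genes passed the adjusted threshold. Over all genes the count was 16 in the DESeq2 Wald test and 1 with sgZrsr2 mice 1 and 2 averaged, and 0 in the others (0 to 0 in the fits without a library); the cause was not tested. Zrsr2 stayed at a log2 fold change of -0.54 to -0.37 when libraries were left out, with a smallest edgeR or DESeq2 adjusted p of 0.139 (DESeq2). The median log2 fold change of the set ran from 0.05 (without sgZrsr2 mouse 3) to 0.31 in the fits without a library. In those fits the median correlation was 0.59 to 0.70, and 0 to 2 genes had groups that did not overlap. The shares of all genes beside these counts are not given here, so the counts are not read as a result about the set. With EV mouse 5 and sgZrsr2 mice 3 and 5 left out, 6 genes did not overlap, against 23.2% of all genes, since fewer samples overlap less, and the median correlation was 0.73; it was 0.70 with upper-quartile factors and 0.21 with the first component removed.

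The labels do not say whether equal mouse numbers pair the samples. Same-numbered libraries correlated by -0.28, -0.12, -0.42 and 0.40 in their deviations from the group means, for mice 1, 2, 3 and 5. These values, of both signs, are too few to decide it. With the mouse number as a replicate block the median log2 fold change was 0.15, with 24 of 35 above 0, Zrsr2 was at -0.48 and 0 genes passed; 341 genes had an unadjusted p under 0.05, against 1024 without it. Under the block the sign changed for Stat2 (-0.05), Irf7 (-0.03), Zbp1 (-0.25) and Cmpk2 (-0.14).

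Signs also changed under limma-voom for Stat2 (-0.33), Irf7 (-0.27), Dhx58 (-0.05), Zbp1 (-0.44), Ifit1 (-0.49), Oasl1 (-0.08), Oasl2 (-0.21), Cmpk2 (-0.59), Usp18 (-0.19), Herc6 (-0.21), Ifi44 (-0.11) and Rtp4 (-0.18), with Samd9l and Dtx3l at 0.00. Without the 3 libraries they changed for Stat2 (-0.26), Irf7 (-0.42), Zbp1 (-1.09), Ifit1 (-0.52), Oasl1 (-0.08), Oasl2 (-0.28), Cmpk2 (-0.63), Usp18 (-0.27), Herc6 (-0.27), Ifi44 (-0.38) and Rtp4 (-0.04), and with sgZrsr2 mice 1 and 2 averaged for Mx2 (0.11), Isg15 (0.12) and Gbp3 (0.00). Leaving out 1 library changed the sign within the ranges -0.15 to 0.32 for Cmpk2, -0.22 to 0.07 for Gbp3, -0.04 to 0.36 for Herc6, -0.17 to 0.87 for Ifi44, -0.10 to 0.79 for Ifit1, -0.21 to 0.26 for Irf7, -0.25 to 0.14 for Isg15, -0.62 to 0.18 for Mx2, -0.10 to 0.22 for Oasl1, 0.00 to 0.53 for Oasl2, -0.12 to 0.23 for Rtp4, -0.21 to 0.19 for Stat2, -0.08 to 0.42 for Usp18 and -0.20 to 0.50 for Zbp1. The cause was not tested. Depth limits Ifit3, Ifit1 and Zbp1, with 3, 12 and 31 expected counts in their lowest libraries.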
